A study of Mus musculus with 4 samples.

Results

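The genes that carry mouse embryonic stem cells (mESC) from G1 into S phase were followed across 4 single-cell libraries and across the naive, formative and keratin-high cells within them. The set comprised 10 genes chosen by symbol, of 32285 in the matrix: the D-type cyclins Ccnd1, Ccnd2 and Ccnd3, the E-type cyclins Ccne1 and Ccne2, the kinases Cdk2, Cdk4 and Cdk6, the inhibitor Cdkn1b, which encodes p27, and Rb1, which encodes the retinoblastoma protein. All 10 were found. Their levels had no part in defining the groups of cells compared.

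D-type cyclins bind Cdk4 or Cdk6, and E-type cyclins bind Cdk2. Both kinds of complex phosphorylate the retinoblastoma protein, which then releases the E2F factors that transcribe genes for DNA replication, the E-type cyclins among them. p27 binds and restrains cyclin-Cdk complexes. Embryonic stem cells are known for a short G1 phase and for cyclin E and Cdk2 activity through much of the cycle, and G1 lengthens when they differentiate.

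The labels list 2 WT samples of the male mESC line E14tg2a.4 and 2 samples of Srrm2 hKO, a heterozygous gene-trap line made from it. The trap line, CG0630, is 1 line, and the study places the trap in exon 1 of Srrm2, which encodes a spliceosome-associated protein. All cells were cultured with LIF, which supports self-renewal, and were moved to serum-free ESGRO medium with LIF before collection. The labels give 24 h or 72 h in that medium without saying which samples had which, and the study's single-cell methods name another length. Barcodes carry a library number from 1 to 4, and none of the sources used here ties these numbers to WT or Srrm2 hKO. Values are therefore given per library, no hKO against WT comparison was made, and differences between libraries have no replicate check. Srrm2 itself, the trapped gene, had 387, 533, 238 and 356 unique molecular identifiers (UMIs) per 1000000 in libraries 1 to 4, and these values assigned no library.

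A filter on UMIs, detected genes and mitochondrial share, rebuilt from the methods, kept 31989 of 41142 cell barcodes. The study's own cell number differs from this. The kept cells came to between 7464 and 8514 a library, with 166839268 to 200180473 UMIs. The median depth was 18378 to 21897.5 UMIs a cell, and the median mitochondrial share was 3.51% to 5.40%. Of the kept barcode sequences, 105 occurred in more than 1 library. Levels are UMIs of a gene per 1000000 UMIs of the cells summed (CPM), and every bracketed range is an exact 95% interval of counting error only.

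The levels differed between libraries in a gene-specific way, shown in the plot of levels by library. Ccnd1 (chr7:144929931-144939925, GRCm38), the D-type cyclin known as a target of mitogen and Wnt signals, had 134, 195, 164 and 177 CPM in libraries 1 to 4. Ccnd2 (chr6:127125162-127152193) had 6.86, 15.8, 12.9 and 10.7 CPM. Ccnd3 (chr17:47505051-47599691) had 118, 100.1, 112 and 94.1 CPM. Library 1 was thus lowest for Ccnd1 and Ccnd2 and highest for Ccnd3.

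Of the E-type cyclins, which activate Cdk2 at the G1 to S transition, Ccne1 (chr7:38097984-38107534) had 101, 238, 132 and 226 CPM in libraries 1 to 4. Libraries 2 and 4 lay well above libraries 1 and 3, and the highest level was 2.36-fold the lowest (2.32 to 2.40). Ccne2 (chr4:11191351-11204779) had the same 2 libraries on top, at 5.27, 8.56, 6.23 and 9.53 CPM, a range of 1.81-fold (1.67 to 1.97).

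Cdk4 (chr10:127063534-127067920), a partner kinase of the D-type cyclins, gave the most UMIs of the 10 genes and had the opposite order. It had 483 and 441 CPM in libraries 1 and 3 against 345 and 321 CPM in libraries 2 and 4, a range of 1.502-fold (1.49 to 1.52). Cdk6 (chr5:3341485-3531008), the alternative D-cyclin kinase, had 26.8, 34.4, 32.9 and 45.4 CPM and was highest in library 4. Cdk2 (chr10:128697939-128705031), the E-cyclin kinase, had 33.9, 31.7, 29.5 and 28.2 CPM, a range of 1.203-fold that became 1.39-fold with median-of-ratios size factors in place of total UMIs.

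Cdkn1b (chr6:134920401-134925513) had 26.5, 17.2, 20.6 and 18.4 CPM. Rb1 (chr14:73183673-73325822) had 5.28, 7.95, 6.25 and 7.38 CPM, and its intervals in libraries 2 (7.57 to 8.35) and 4 (6.98 to 7.80) overlapped. Library 1 had the highest Cdkn1b and the lowest Rb1 level.

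**Figure D1:**
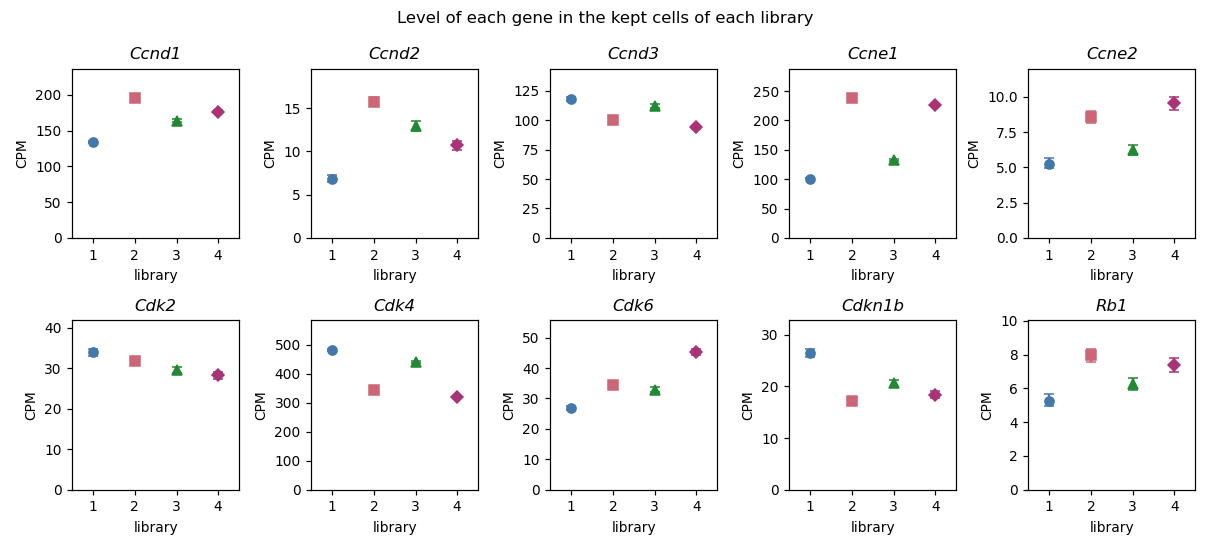
Level of each of the 10 genes (CPM, vertical axis starting at 0) in the kept cells of libraries 1 to 4 (horizontal axis), with exact 95% Poisson intervals that are mostly smaller than the points. Ccne1 reached 238 and 226 CPM in libraries 2 and 4 against 101 and 132 CPM in libraries 1 and 3, whereas Cdk4 was highest in library 1 at 483 CPM.

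In all, 7 of the 10 genes spanned at least 1.5-fold between their highest and lowest library. Across all genes with at least 200 counts, 51.7% did so (7510 of 14525), and the median range was 1.52-fold for the set and 1.52-fold for all genes, so the spread of the set was that of genes in general. Cdk4 (1.502-fold, 1.49 to 1.52), Cdkn1b (1.54-fold, 1.47 to 1.61) and Rb1 (1.506-fold, 1.39 to 1.64) passed with intervals that reached under 1.5-fold. Over all barcodes Rb1 did not pass. The count of 7 rested on library 1, without which 2 genes remained (Ccne1 and Ccne2). A range over fewer libraries can only stay or narrow, for any gene. With median-of-ratios size factors, which rescaled library 1 by 0.917 and library 4 by 1.06 relative to total UMIs, 5 genes passed. The share of all genes is not given for any of these settings, so their counts are not set against genes in general.

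The libraries also held different cells, so the levels were taken again within naive cells alone. Cells were sorted by panels that contain none of the 10 genes: keratin-high cells had at least 2 UMIs of Krt8 and Krt18 per 10000 and at least 3 in all, and the remaining cells were naive or formative where 1 panel had at least 2 times the UMIs of the other. Naive cells numbered 7707, 6022, 5923 and 2661 in libraries 1 to 4, formative cells 174, 1316, 581 and 2911, and keratin-high cells 104, 97, 858 and 647. These classes are ranges of a per-cell score rather than cell types, and 1755 cells lay near a panel limit. The keratin limit was no sharper, since 2311 kept cells had between 1 and 4 keratin UMIs per 10000, more than the 1706 keratin-high cells. The median keratin-high cell had 19, 6, 43 and 9 keratin UMIs in libraries 1 to 4. The pluripotency genes Pou5f1, Sox2 and Utf1 were detected in each class, with a summed level of 1675 to 1872 CPM in naive, 1441 to 1680 CPM in formative and 822 to 1296 CPM in keratin-high cells. The 3 genes differed. Sox2 had 383 to 466 CPM in naive, 80.5 to 175 CPM in formative and 98.8 to 133 CPM in keratin-high cells. Pou5f1 had 713 to 850, 692 to 862 and 379 to 733 CPM in the same order, and Utf1 had 475 to 582, 585 to 738 and 344 to 485 CPM.

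Within naive cells, Ccne1 still ranged 2.34-fold (2.30 to 2.39), with 100.3, 235, 141 and 231 CPM in libraries 1 to 4. Ccnd2 ranged 2.66-fold (2.46 to 2.89), with 5.47, 14.6, 5.99 and 5.63 CPM, so that library 2 stood alone. Cdk4 ranged 1.64-fold (1.62 to 1.67), with library 1 highest at 482 CPM and library 4 lowest at 293 CPM. The range of Cdk6 was 1.42-fold (1.35 to 1.502), with 24.1 CPM in library 1 and 34.3 CPM in library 4, and that of Rb1 was 1.495-fold (1.36 to 1.65). Cdk2 ranged 1.07-fold (1.01 to 1.12), from 32.5 to 34.7 CPM. Ccnd1 ranged 1.44-fold (1.41 to 1.46), Ccnd3 1.19-fold (1.16 to 1.22), Ccne2 1.53-fold (1.40 to 1.69) and Cdkn1b 1.54-fold (1.46 to 1.62).

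Between the pluripotent states, Cdk6 and Ccne2 were higher in formative than in naive cells of every library. Cdk6 had 24.1, 30.5, 25.4 and 34.3 CPM in naive and 72.8, 51.6, 51.6 and 56.2 CPM in formative cells of libraries 1 to 4. The folds were 3.02 (2.68 to 3.40), 1.69 (1.60 to 1.79), 2.03 (1.87 to 2.20) and 1.64 (1.55 to 1.73). Ccne2 had 4.90, 7.51, 5.004 and 7.26 CPM in naive and 12.1, 12.4, 9.35 and 11.2 CPM in formative cells. Its folds were 2.46 (1.81 to 3.28), 1.65 (1.47 to 1.86), 1.87 (1.53 to 2.27) and 1.54 (1.36 to 1.74). Cells high in S-phase transcripts, in which Ccne2 was also higher, made up 31.0%, 27.4%, 24.8% and 24.9% of formative and 23.7%, 21.2%, 24.7% and 20.9% of naive cells, and their part in the fold was not tested.

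These were 2 of the 10 genes at least 1.5-fold higher in formative cells of every library, and 0 were as much lower. Of all 11886 genes that reached 100 counts over the pair of classes in each library, 10.5% were higher and 7.49% lower by the same rule. The median log2 fold was 0.10 for the set and 0.12 for all genes. Under size factors, which moved the log2 folds by -0.16 to -0.22, 0 genes passed, and the lowest folds of Cdk6 and Ccne2 became 1.46 and 1.38. Splitting naive from formative cells at equal panel sums left Cdk6 alone. For neither alternative is the share of all genes given.

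The D-type cyclins went different ways between the same states. Ccnd3 had 122, 105, 125 and 114 CPM in naive against 61.7, 82.8, 56.3 and 75.5 CPM in formative cells. Its folds were 0.51 (0.45 to 0.57), 0.79 (0.76 to 0.82), 0.45 (0.42 to 0.49) and 0.66 (0.64 to 0.68). Ccnd2 had 28.2, 19.9, 22.3 and 13.1 CPM in formative cells, which was 5.15-fold (4.21 to 6.26), 1.36-fold (1.24 to 1.496), 3.73-fold (3.25 to 4.27) and 2.33-fold (2.05 to 2.65) its naive level. Ccnd1 had 275, 222, 241 and 188 CPM in formative cells, or 2.15-fold (2.02 to 2.28), 1.21-fold (1.18 to 1.24), 1.53-fold (1.47 to 1.58) and 1.14-fold (1.11 to 1.17) its naive level. Library 2 decided 2 of these outcomes, since without it Ccnd2 passed as higher and Ccnd3 as lower, and 4 of the 10 genes passed in place of 2. Dropping a library from a rule over every library can only keep or add calls, for any gene. The share of all genes without library 2 is not given, so this count is not set against genes in general.

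The make-up of the D-type cyclin UMIs moved accordingly. Ccnd3 contributed 47.7%, 34.6%, 43.2% and 40.2% of them in naive cells of libraries 1 to 4 and 16.9%, 25.5%, 17.6% and 27.3% in formative cells. Ccnd1 contributed 50.2% to 60.6% in naive and 68.0% to 75.4% in formative cells. Intermediate cells lay between, with 23.9% to 33.1% Ccnd3. The 3′ end of each transcript may be captured with its own efficiency, so the shares are compared between classes and not as molecule numbers between genes.

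**Figure D2:**
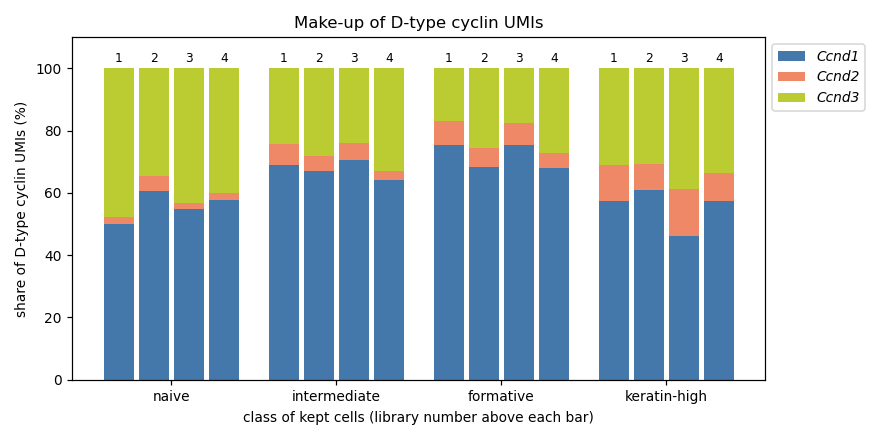
Share of D-type cyclin UMIs (%, vertical axis) that came from Ccnd1, Ccnd2 and Ccnd3 in each class of kept cells (horizontal axis), with 1 bar per library. The Ccnd3 share was 34.6% to 47.7% in naive and 16.9% to 27.3% in formative cells, and the Ccnd2 share was widest in keratin-high cells.

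The other genes stayed within 1.5-fold between naive and formative cells in at least 2 of the libraries. Ccne1 had folds of 1.21, 1.04, 0.93 and 0.97, and its formative levels were 121, 244, 131 and 224 CPM, with libraries 2 and 4 again above libraries 1 and 3. Cdk4 had folds of 1.08, 1.17, 1.04 and 1.19. Cdk2 was below its naive level in each library, at 0.64 (0.51 to 0.79), 0.77 (0.71 to 0.83), 0.63 (0.56 to 0.71) and 0.77 (0.72 to 0.82), without reaching the limit in libraries 2 and 4. Cdkn1b had folds of 1.06, 0.98, 0.91 and 1.06, and each interval included 1. Rb1 had folds of 0.77, 1.02, 1.25 and 0.98, and its intervals, the widest 0.45 to 1.24, also included 1.

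Formative cells were not alike in the 4 libraries. The summed formative panel had 979 and 1008 CPM in those of libraries 1 and 3 and 1921 and 1704 CPM in those of libraries 2 and 4. The folds of Ccnd1, Ccnd2, Ccnd3, Ccne2, Cdk2 and Cdk6 were farther from 1 in libraries 1 and 3. Those of Cdk4 were closer to 1 there, and those of Ccne1, Cdkn1b and Rb1 went opposite ways in libraries 1 and 3. The median mitochondrial share was 3.37% to 3.80% in formative and 3.77% to 5.46% in naive cells. Markers of other cell types also differed, with summed levels of 6.51 to 12.5 CPM in formative against 1.47 to 3.69 CPM in naive cells for 5 fibroblast genes, 2.41 to 5.35 against 0.69 to 1.30 CPM for 5 primitive endoderm genes and 7.23 to 9.96 against 43.5 to 61.0 CPM for 5 trophectoderm genes. The fibroblast sum was mostly Thy1 in libraries 1, 2 and 4 (5.79, 9.03 and 7.78 CPM in formative cells, 1.31, 3.49 and 2.10 CPM in naive cells), where Col1a1 and Col1a2 had 0 to 0.72 CPM in formative cells. In library 3, formative cells had 3.86 CPM of Thy1, 3.71 CPM of Col1a1 and 4.23 CPM of Col1a2. The primitive endoderm sum was mostly Dab2 (2.17, 2.57, 4.53 and 4.15 CPM in formative cells, 0.37, 0.35, 0.85 and 0.61 CPM in naive cells), with each of Gata4, Gata6, Sox17 and Pdgfra at 0 to 0.41 CPM in formative cells. The lower trophectoderm sum came from Tfap2c (2.17 to 4.06 against 42.2 to 59.2 CPM), whereas Eomes was higher in formative cells (2.97 to 5.54 against 0.85 to 1.68 CPM) and Cdx2 had at most 0.47 CPM. Gata3 of the same list was higher in formative cells of libraries 1 and 3 (1.93 against 0.06 CPM and 1.48 against 0.37 CPM) and not in those of libraries 2 and 4 (0.20 against 0.29 CPM and 0.23 against 0.32 CPM), each from 6 to 20 formative counts. The part of these values in the folds was not tested.

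**Figure D3:**
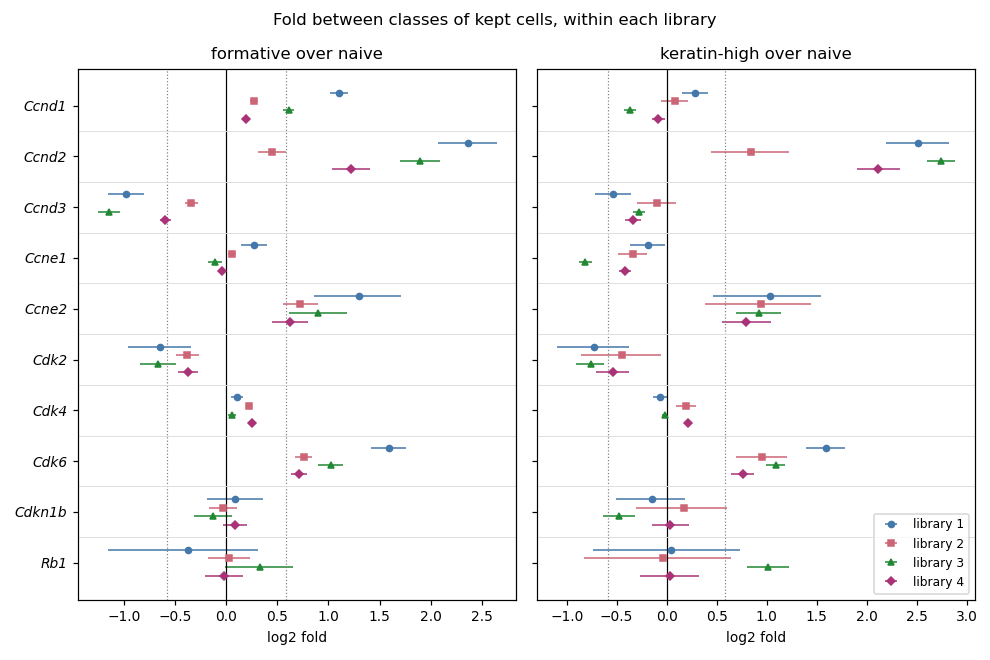
Log2 fold of each gene in formative over naive cells (left) and in keratin-high over naive cells (right), within each library, with exact 95% intervals of the ratio of counts. Solid lines mark no difference and dotted lines 1.5-fold, and Cdk6 and Ccne2 lie beyond the upper dotted line for every library in both panels.

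Sequence upstream of the kinase genes is shown because Cdk4 and Cdk6, the alternative partners of the D-type cyclins, behaved differently between libraries and states, and because Cdk2 shares its partner with the E-type cyclins. RefSeq's promoter table (GRCm38.p6) held 6 of the 10 genes, Ccnd3 with 2 windows, and Ccnd1, Ccnd2, Ccne2 and Rb1 were not matched. The 250 bases before the RefSeq start were searched on both strands for CACGTG, the E-box that Myc and Max bind, and for the E2F-type letters TTTCCCGC, TTTGGCGC, TTTCGCGC and TTTGCCGC. CACGTG reads the same on both strands and overlaps none of the E2F-type letters. The motifs were chosen after the sequences had been read. Matches are in capitals, 5′ to 3′ on the strand of the gene. The whole window is given for Cdk4 (chr10:127063285-127063534, plus strand), and the match with 10 bases on either side for Cdk6 (chr5:3343663-3343688, plus strand) and Cdk2 (chr10:128705174-128705201, minus strand).
Cdk4: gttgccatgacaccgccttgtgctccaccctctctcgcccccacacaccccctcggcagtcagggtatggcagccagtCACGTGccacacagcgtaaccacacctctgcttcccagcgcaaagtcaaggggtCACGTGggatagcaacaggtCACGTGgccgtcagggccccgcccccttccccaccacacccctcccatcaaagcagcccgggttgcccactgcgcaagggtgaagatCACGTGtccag
Cdk6: tctgcggcccCACGTGggtgaacccc
Cdk2: accaggaactGCGGGAAAgttgtgcagc

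The Cdk4 window held 4 CACGTG matches, starting 172, 118, 98 and 11 bases before the start, and the Cdk6 window held 1. The RefSeq start of Cdk6 is not the GENCODE one, and its window begins 2158 bases inside the gene as given above. Of 32851 windows of this length, 6.02% held at least 1 such match and 7 windows held at least 4. The limit of 4 is the Cdk4 window's own count, and the motif was chosen after that window was read, so these numbers only describe it. A link between the matches and the levels was not tested. The Cdk2 window held 1 E2F-type match, on the reverse strand, and 1.86% of all windows held any. Neither kind was found in the windows of Ccnd3, Ccne1 and Cdkn1b, which says only that these letters are not there.

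Ccnd2, Cdk6 and Ccne2 were higher in keratin-high than in naive cells of every library. Ccnd2 had 31.3, 26.1, 40.2 and 24.4 CPM in keratin-high cells of libraries 1 to 4, against 5.47, 14.6, 5.99 and 5.63 CPM in naive cells. The folds were 5.72 (4.59 to 7.06), 1.79 (1.36 to 2.33), 6.71 (6.09 to 7.40) and 4.34 (3.74 to 5.03). Its share of D-type cyclin UMIs was 11.5%, 8.2%, 15.1% and 9.0%, against 2.0% to 4.8% in naive cells. Cdk6 had 72.6, 59.0, 54.2 and 58.1 CPM in keratin-high cells, 1.69-fold to 3.01-fold its naive level, and Ccne2 had 10.00, 14.4, 9.48 and 12.6 CPM, 1.74-fold to 2.04-fold. The Ccne2 levels of libraries 1 and 2 rested on 31 and 32 counts, with intervals of 6.80 to 14.2 and 9.86 to 20.4 CPM.

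By the same rule, 3 of the 10 genes were higher in keratin-high cells of every library and 0 were lower, against 13.7% and 7.98% of all 11414 genes tested. The median log2 fold was 0.02 for the set and 0.08 for all genes. With size factors, which moved the log2 folds by -0.18 to -0.22, Ccnd2 and Ccne2 passed as higher, Cdk6 just missed with a lowest fold of 1.496, and Cdk2 passed as lower with folds of 0.52 to 0.63. The share of all genes with size factors is not given. With total UMIs, Cdk2 had 21.0, 24.3, 19.4 and 22.4 CPM in keratin-high cells, or 0.60, 0.73, 0.59 and 0.69 of its naive level.

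Ccne1 had 88.1, 186, 80.4 and 174 CPM in keratin-high cells, or 0.88 (0.78 to 0.99), 0.79 (0.71 to 0.87), 0.57 (0.54 to 0.60) and 0.75 (0.72 to 0.78) of its naive level. Cells high in S-phase transcripts, in which Ccne1 was higher, made up 14.4%, 19.6%, 7.81% and 13.8% of keratin-high cells. They made up 23.7%, 21.2%, 24.7% and 20.9% of naive cells, and their part in these ratios was not tested. Ccnd3 had ratios of 0.69, 0.93, 0.83 and 0.79, and Cdk4 had 0.96, 1.14, 0.99 and 1.16. Rb1 reached 10.6 CPM in keratin-high cells of library 3, 2.02-fold (1.74 to 2.34) its naive level, whereas its folds in libraries 1, 2 and 4 were 1.03, 0.97 and 1.02. Cdkn1b had ratios of 0.90 (0.71 to 1.13), 1.12 (0.81 to 1.52), 0.72 (0.64 to 0.80) and 1.03 (0.90 to 1.17). Those of Ccnd1 were 1.22 (1.11 to 1.33), 1.06 (0.96 to 1.16), 0.78 (0.75 to 0.81) and 0.94 (0.90 to 0.99), so that both genes were lowest relative to naive cells in library 3.

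Other values moved with the keratin-high class. The 5 fibroblast markers Col1a1, Col1a2, Lum, Thy1 and Postn summed to 17.9 to 55.3 CPM in keratin-high and 1.47 to 3.69 CPM in naive cells. In keratin-high cells of libraries 1 to 4, Col1a1 had 3.23, 18.5, 22.8 and 8.33 CPM and Col1a2 22.3, 5.41, 29.3 and 3.55 CPM. Each had at most 0.76 CPM in naive cells. Thy1 had 2.58, 7.66, 0.78 and 5.76 CPM in keratin-high against 1.31, 3.49, 0.81 and 2.10 CPM in naive cells. Lum was at 0 in keratin-high cells of each library, where 3 counts equal 0.12 to 1.35 CPM, and had at most 1 count in naive cells of a library. The 5 primitive endoderm markers Gata4, Gata6, Sox17, Dab2 and Pdgfra summed to 4.84 to 20.6 CPM against 0.69 to 1.30 CPM, and in keratin-high cells Sox17 was at 0 in libraries 1 and 2 and Gata4 and Pdgfra in library 1. The 5 trophectoderm markers Cdx2, Elf5, Tfap2c, Gata3 and Eomes summed to 23.0 to 29.1 CPM against 43.5 to 61.0 CPM. Within that list Tfap2c had 7.53 to 12.3 CPM against 42.2 to 59.2 CPM, whereas Gata3 had 5.41 to 12.6 CPM against 0.06 to 0.37 CPM and Eomes 2.90 to 5.63 CPM against 0.85 to 1.68 CPM. Cdx2 reached 7.66 CPM in keratin-high cells of library 2, against 0.06 CPM in its naive cells, and Elf5 was at 0 in libraries 1, 2 and 4 and Cdx2 in library 1. The median mitochondrial share was 3.05% to 3.68% against 3.77% to 5.46%. Their part in the folds was not tested.

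Of the 6 other Cdk inhibitors, Cdkn1a, Cdkn1c, Cdkn2a and Cdkn2b were higher in keratin-high than in naive cells of every library, as the plot of inhibitors shows. Cdkn2b, which encodes the Cdk4 and Cdk6 inhibitor p15, had 10.6, 12.2, 63.3 and 9.13 CPM in keratin-high cells, against 0.49, 1.25, 1.35 and 1.41 CPM in naive cells. Cdkn2a, whose transcripts for p16 and p19Arf share their 3′ exons and cannot be told apart here, had 37.4, 47.8, 179 and 25.2 CPM against 6.41, 8.73, 13.8 and 11.4 CPM. Cdkn1a, which encodes p21, had 65.8, 63.1, 180 and 50.1 CPM against 32.3, 26.5, 29.4 and 20.1 CPM. Library 3 was highest for all 3, as it was for the keratins, which summed to 3216 CPM in its keratin-high cells and to 1090 to 1688 CPM in those of libraries 1, 2 and 4.

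Cdkn1c, which encodes p57 and is an imprinted gene, had 17.6, 33.5, 24.9 and 26.2 CPM in naive, 43.9, 65.0, 69.0 and 63.2 CPM in formative and 93.3, 101, 143 and 99.0 CPM in keratin-high cells. It was the inhibitor higher in both classes in every library. Thus 4 of the 5 tested were higher in keratin-high cells, where 13.7% of all genes were. Cdkn2b had only 76 and 83 counts in naive cells of libraries 1 and 4 and reached 100 through its 33 and 149 keratin-high counts, and without it the count was 3 of 4. In formative cells 1 of 4 tested was higher, against 10.5% of all genes. Cdkn2d, which encodes p19 of the Ink4 family, had folds of 1.01 to 1.36 in keratin-high and 0.71 to 0.98 in formative cells, and Cdkn2c stayed under the count minimum.

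**Figure D4:**
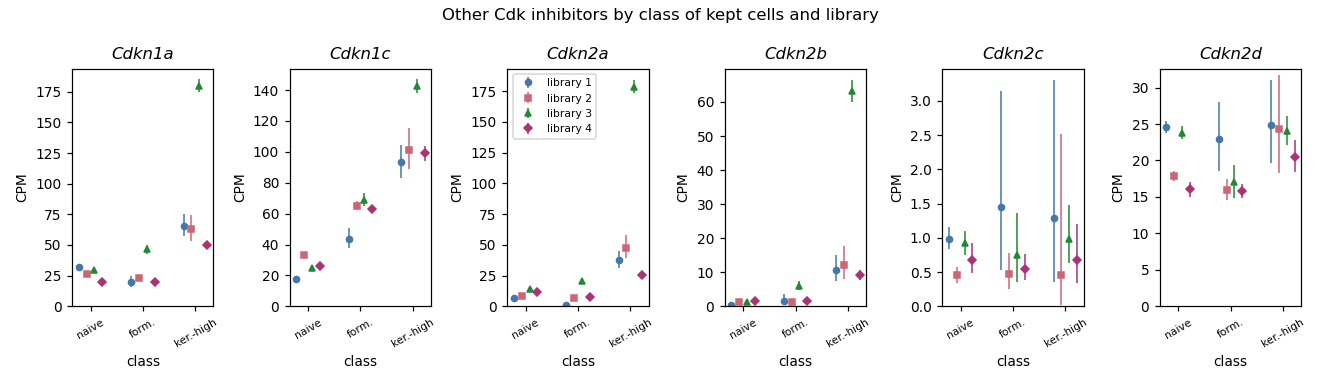
Level (CPM, vertical axes starting at 0, each on its own scale) of the 6 other Cdk inhibitors in naive, formative (form.) and keratin-high (ker.-high) cells of each library, with exact 95% Poisson intervals. Cdkn2b reached 63.3 CPM in keratin-high cells of library 3 and stayed at or under 1.41 CPM in naive cells of every library.

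Of the 28 further genes of the pathway, 2 of 26 tested were higher in formative cells (Cdkn1c and E2f6) and 0 were lower, against 10.5% and 7.49% of all genes. In keratin-high cells 6 of 27 were higher (the 4 inhibitors, E2f6 and Myc) and 3 were lower (Rbl2, Tfdp2 and Mycn), against 13.7% and 7.98% of all genes. Without Cdkn2b, 5 of 26 were higher. E2f6, a repressor of the E2F family, had 8.68 to 10.9 CPM in naive, 21.9 to 25.3 CPM in formative and 20.01 to 25.2 CPM in keratin-high cells. Myc, a factor that promotes entry into S phase, had 9.42 to 17.5 CPM in naive and 29.8 to 34.7 CPM in keratin-high cells, whereas Mycn had 83.8 to 151 CPM and 40.3 to 94.6 CPM. Rbl2, a relative of Rb1, had 3.42 to 3.88 CPM in naive and 0.45 to 2.08 CPM in keratin-high cells. It met the count minimum through its naive cells, and its keratin-high counts were 4, 1, 41 and 34 in libraries 1 to 4. In libraries 1 and 2 its keratin-high intervals were wide, at 0.35 to 3.31 and 0.01 to 2.51 CPM. Size factors kept each of these calls and added Rbl2 as lower in formative and E2f1 as lower in keratin-high cells.

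Between libraries, 16 of the 28 spanned 1.5-fold: 6 of 6 inhibitors, 6 of 10 E2F and DP factors, 2 of 8 genes of kinase activation and turnover (Cdc25a and Skp2), Myc and Mycn, and neither pocket protein. Of all genes, 51.7% did so. The median range was 1.59-fold, against 1.52-fold for all genes. The widest was that of Cdkn2b, which had 0.70 CPM in library 1 against 10.7 CPM in library 3 (15.2-fold, 12.6 to 18.5). Keratin-high cells, its highest class, made up 1.28% of library 1 and 10.9% of library 3. Without library 3 the range was 3.18-fold (2.58 to 3.94), and within naive cells it was 2.89-fold (2.09 to 3.99), from 0.49 to 1.41 CPM. Cdkn1a went from 2.25-fold to 1.38-fold without library 3, under the limit, and Cdkn2a from 5.58-fold to 1.65-fold. Among the E2F and DP factors, E2f3 ranged 2.47-fold, E2f2 2.14-fold, Tfdp1 1.98-fold, E2f7 1.86-fold, E2f8 1.72-fold and E2f6 1.62-fold.

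The cycle itself was read from 14 S and 14 G2/M genes that include none of the set. In each library the 25% of cells with the largest G2/M share of UMIs was taken as G2/M-high, the others in the top 25% of S share as S-high, and cells under the median of both as cycle-low. These are ranges of transcript shares and not phase calls. Keratin-high cells made up 2.95%, 2.12%, 29.5% and 14.8% of the cycle-low cells of libraries 1 to 4, and the cycle-low share was 33.4% to 53.0% of keratin-high and 15.5% to 20.2% of naive cells. It was 8.62% to 16.8% of formative cells. The folds below are therefore given within naive cells, with those over all kept cells where they part.

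The E-type cyclins had their highest levels in S-high cells. Ccne2 had 4.12, 5.29, 4.29 and 5.69 CPM in cycle-low and 8.11, 13.9, 8.18 and 14.3 CPM in S-high naive cells of libraries 1 to 4. The folds were 1.97 (1.55 to 2.53), 2.63 (2.14 to 3.23), 1.91 (1.47 to 2.49) and 2.51 (1.86 to 3.42). Ccne1 had 91.5, 202, 124 and 201 CPM in cycle-low and 129, 308, 182 and 305 CPM in S-high naive cells, or 1.41-fold (1.34 to 1.49), 1.53-fold (1.47 to 1.58), 1.48-fold (1.40 to 1.55) and 1.52-fold (1.44 to 1.60). In G2/M-high naive cells Ccne1 was back at 0.97, 1.00, 1.00 and 0.98 of the cycle-low level. Ccne2 had 0.70, 0.94, 0.79 and 0.77 of it there, and the interval lay under 1 in library 1 alone.

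Over all kept cells, Ccne2 was the 1 gene of 10 at least 1.5-fold higher in S-high cells of every library, and 0 were lower, against 0.246% and 0.284% of all 10568 genes tested. The median log2 fold was 0.24 for the set and 0.06 for all genes. Ccne1 had folds of 1.44, 1.54, 1.81 and 1.53 and missed the limit through library 1, without which 2 genes passed. The share of all genes without library 1 is not given. Within naive cells the library 3 fold of 1.48 kept Ccne1 under the limit without library 1 as well. E2f8, itself an E2F factor of S phase, was the 1 gene of 26 tested from the pathway lists that passed, with 13.1 to 23.1 CPM in cycle-low and 24.0 to 43.5 CPM in S-high cells.

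Cdk2 had 38.4, 39.2, 37.2 and 39.5 CPM in S-high naive cells, or 1.16-fold, 1.26-fold, 1.21-fold and 1.26-fold its cycle-low level, and 0.97-fold to 1.05-fold in G2/M-high cells. Cdk4 stayed close to its cycle-low level, at 0.91 to 0.97 in S-high and 0.90 to 0.95 in G2/M-high naive cells. Ccnd1 had folds of 1.11 to 1.21 in S-high and 1.18 to 1.30 in G2/M-high naive cells. Ccnd3 had 1.12 to 1.35 and 0.95 to 1.09. In S-high naive cells Cdkn1b had folds of 1.11 to 1.37, Cdk6 of 0.97 to 1.25 and Rb1 of 1.04 to 1.32.

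Cdkn1b had its highest level in G2/M-high cells of each library. It had 21.8, 12.6, 16.9 and 14.5 CPM in cycle-low and 31.0, 21.3, 28.9 and 21.4 CPM in G2/M-high naive cells. The folds were 1.42 (1.28 to 1.58), 1.69 (1.48 to 1.93), 1.71 (1.51 to 1.94) and 1.48 (1.22 to 1.80), and each interval lay above 1. Cdk6 had folds of 1.49, 1.15, 1.25 and 1.38 in the same comparison. Over all kept cells, the Cdkn1b folds were 1.45, 1.80, 1.86 and 1.58. By the 1.5-fold rule 0 of the 10 genes were higher or lower in G2/M-high cells of every library over all kept cells, against 1.01% and 0.256% of all 10950 genes tested. Without library 1 Cdkn1b passed there, a setting for which the share of all genes is not given. Within naive cells the count was also 0, against 1.21% and 0.0208% of 9598 genes, and the library 4 fold kept Cdkn1b under the limit without library 1 as well. Over all kept cells the median log2 fold was -0.02 for the set and 0.08 for all genes, and 0 of 26 pathway genes passed.

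Ccnd2 depended on the cells included. Over all kept cells of library 3 its S-high fold was 0.33 (0.29 to 0.37) and its G2/M-high fold 0.20 (0.17 to 0.22), whereas within naive cells they were 0.95 (0.77 to 1.19) and 0.64 (0.51 to 0.80). In naive cells of libraries 1, 2 and 4 the S-high folds were 2.22, 1.62 and 1.49 and the G2/M-high folds 1.51, 1.09 and 0.81. Over all kept cells of these libraries, Ccnd2 had 8.61, 20.8 and 11.4 CPM in S-high and 5.15, 14.2 and 13.3 CPM in cycle-low cells. It had 6.19, 13.7 and 9.74 CPM in G2/M-high cells. In library 4 its S-high level thus lay under the cycle-low level, unlike within naive cells. Rb1 in library 3 likewise went from 0.73 (S-high) and 0.60 (G2/M-high) over all kept cells to 1.17 and 1.00 within naive cells, and its G2/M-high folds in naive cells of libraries 1, 2 and 4 were 0.94, 1.24 and 0.97.

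**Figure D5:**
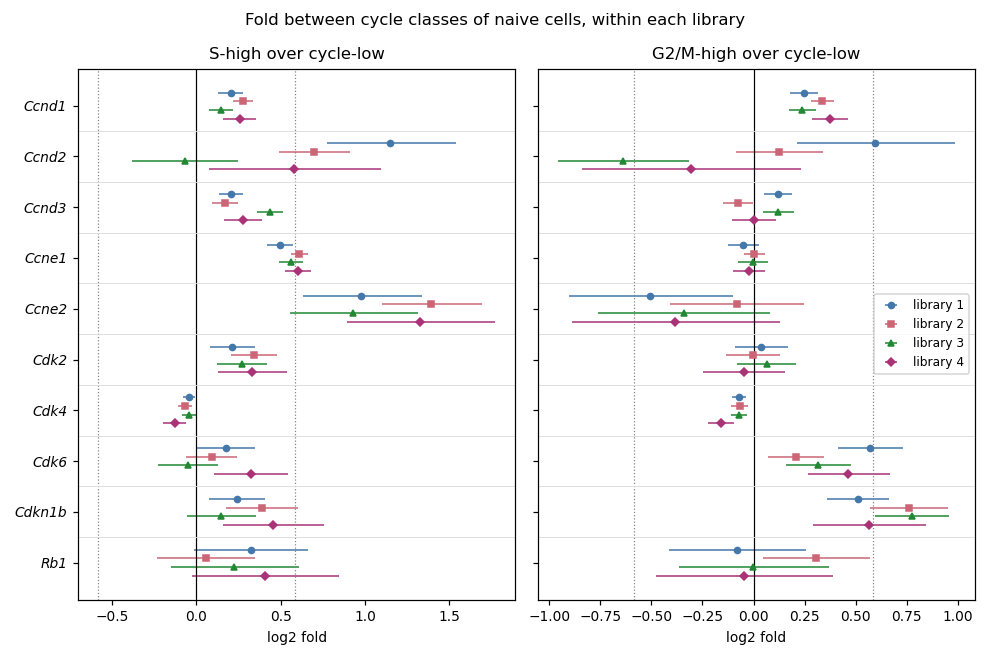
Log2 fold of each gene in S-high over cycle-low (left) and in G2/M-high over cycle-low (right) naive cells, within each library, with exact 95% intervals of the ratio of counts. Solid lines mark no difference and dotted lines 1.5-fold. Ccne1 and Ccne2 lie to the right in the S-high panel, and Cdkn1b lies to the right in the G2/M-high panel, in each library.

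Detection per cell was compared after each cell was thinned to 5000 UMIs. Cdk4 was detected in 91.0%, 80.4%, 88.7% and 78.8% of cells of libraries 1 to 4, and Ccne1 in 38.1%, 65.5%, 45.1% and 63.4%. Ccnd2, Ccne2 and Rb1 were each detected in 2.64% to 6.48% of cells, so a single cell without a UMI of these genes says little. Random sampling from a common mean (Poisson) gives 40.1%, 69.6%, 49.1% and 67.7% for Ccne1, and its variance over its mean was 1.14 to 1.26. For Ccnd2 that ratio was 1.24, 1.32, 2.20 and 1.43, and for Cdk2, Ccne2 and Rb1 it lay between 0.99 and 1.08. No cell type that lacks these genes was available as a background.

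For 6 of the 7 genes that ranged at least 1.5-fold, the genes with the most similar levels are given, out of 12849 genes, by Pearson correlation of log2(CPM + 1) over 12 points, each the sum of naive, formative or keratin-high cells of 1 library. Points of 1 library share their culture, and the highest of so many correlations are large by selection. The 3 closest were Ercc6l, Nolc1 and Mdn1 for Ccne1 (r of 0.98), Slc7a8, Armcx2 and Slc16a3 for Ccne2 (0.98), and Wipf3, Epcam and Nsd2 for Cdk6 (0.98). They were Ndufaf3, Mdh1 and Cuedc2 for Cdk4 (0.97), Pcmt1, Gorasp2 and Pls3 for Ccnd2 (0.95 to 0.96), and Aldh4a1, Tmtc3 and Derl2 for Rb1 (0.95 to 0.97).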

How the data were processed

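Droplet 3′ single-cell libraries (10x Genomics v3) were aligned by the authors to mm10 with Cell Ranger 6.1.2 and joined by its aggregation step at default settings, which subsamples reads to even out depth. The deposited values are raw UMI counts per gene and barcode (32285 genes, 41142 barcodes, 744302782 UMIs). The study's filter was then applied per library: UMIs and detected genes each at or above the mean minus 1 SD, and mitochondrial share at most 10%. Counts were summed per library and class with Python 3.11.15, numpy 2.4.6, scipy 1.17.1 and pandas 2.3.3.

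Library numbers could not be tied to labelled samples, so Srrm2 hKO was not tested against WT, although this had been planned, and no p-value, SD or mean over libraries is given. The rule of size was 1.5-fold, in every library for classes. Classes came from fixed panels and not from clustering. The naive panel was Nanog, Klf2, Klf4, Klf5, Esrrb, Tfcp2l1, Zfp42, Tbx3, Prdm14 and Nr5a2, and the formative panel Dnmt3a, Dnmt3b, Pou3f1, Fgf5, Otx2, Lef1, Sox3 and Zic2. Levels have exact Poisson, ratios exact conditional binomial and shares Clopper-Pearson 95% intervals, for counting error only. A count of 0 allows up to 3 counts, 0.0150 to 0.0180 CPM in a whole library and 0.12 to 1.35 CPM in its keratin-high cells. Doublets were not called, and leaving out 1615 cells above 2 times their library's median UMI count was an alternative. All 10 genes are described in each comparison, pathway genes where they passed the rule, and 3 nearest genes by correlation for those ranging 1.5-fold. The nearest genes of Cdkn1b are not reported here. The genes, panels and lists were chosen with earlier results of these data known. The class calls were tested on simulated counts that held counting noise only. With each class 25% of a library, 100 of 100 genes raised 2-fold, 100 of 100 lowered 2-fold and 0 of 11684 unchanged genes were called. With 1 class at 1% and the other at 70% of every library, near the smallest classes here, 67 of 100 raised, 68 of 100 lowered and 23 of 12318 unchanged genes were called. Keratin-high cells were 1.28%, 1.14%, 10.9% and 8.67% of libraries 1 to 4. Both simulated classes drew on the profile of all barcodes, and changes smaller than 2-fold were not simulated. Coordinates are from GENCODE on GRCm38, the assembly of mm10.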

Additional observations from a re-analysis of the deposited data

How the results depend on the processing

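No paired analysis was possible because library numbers could not be tied to labelled samples, so Srrm2 hKO and WT could not be matched by number. Class folds were taken within each library, without a test across libraries. With a 2-fold limit, 2 genes passed between libraries (7 at 1.5-fold), and 0 passed in the formative, keratin-high and S-high comparisons (2, 3 and 1 at 1.5-fold). Between formative and naive cells, a split at equal panel sums gave 1 gene and size factors 0. Leaving out each library in turn gave 2 to 7 genes between libraries, with the lowest count without library 1, and 2 to 4 for formative cells, with the highest without library 2. It gave 1 to 2 genes for S-high and 0 to 1 for G2/M-high cells, over all kept cells and both highest without library 1. The keratin-high count was 3 each time. Shares of all genes are not given for these alternatives, so their counts are not set against genes in general. All barcodes, the mean of per-cell CPM and leaving out cells of very high UMI count kept each count within 1.5 times. At a keratin limit of 5 per 10000, library 2 had under 50 keratin-high cells and was not compared. Of the values of the 10 genes, 229 moved beyond their counting interval under an alternative and 211 did not, and none of the called ones turned its direction. The intervals cover counting only, so the spread between cultures of 1 line is unknown. The ranges of Cdkn1a, Cdkn2a and Cdkn2b without library 3, and of Cdkn2b within naive cells, were chosen after seeing the data. So were the inhibitor and pathway counts without Cdkn2b.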
